A study of Mus musculus with 3 samples.

Results

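Cholesterol is built from acetyl-CoA through the mevalonate pathway, and its making and import are set by sterol-sensing proteins of the endoplasmic reticulum. The genes described here are 29 genes of that system, chosen by name: 18 enzymes of synthesis, 5 regulators, and 6 genes of sterol uptake, storage and transport. All 29 were found by symbol among the 24346 genes of the deposited table, and every member reached at least 1 FPKM (a level scaled by transcript length and library total) in all 3 libraries. Of all genes in the table, 49.9% did so. RNA came from the initial segment and caput, the first stretch of the epididymal duct, where sperm from the testis start to mature. The labels give 1 group: untreated 14-week-old mice of genotype Ovch2-/-, lacking ovochymase 2, a secreted protease made by the initial segment. The group has 3 libraries, named here replicates 1, 2 and 3. The sources used here do not say how the allele was made, what the strain was, or whether each library is a separate animal or a pool. Wild-type tissue was not analysed here. The values therefore describe tissue of this genotype alone, no test between groups could be made, and the spread between libraries may be technical.

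When membrane sterol is low, the protein SCAP carries the SREBP transcription factors (genes Srebf1 and Srebf2) from the endoplasmic reticulum to the Golgi, where proteases release the part that enters the nucleus. There it binds sterol regulatory elements beside the genes of synthesis and uptake, together with the general factors NF-Y and Sp1. When sterol is plentiful, the INSIG proteins hold SCAP back. In the epididymis the sterol content of the sperm membrane is remodelled as sperm pass along the duct.

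Replicate 1 stood apart from the other libraries before any member was considered. On the log2(FPKM + 1) scale replicates 2 and 3 correlated across the 24346 genes with a Pearson's r of 0.989, and replicate 1 correlated with them at 0.965 and 0.969, given as a description with no p. The summed level of 10 initial segment genes was 188, 12275 and 11568 FPKM in replicates 1, 2 and 3, and all 10 were lowest in replicate 1. Gpx5, a defining secretory gene of the caput, stood at 25918, 35882 and 32210 FPKM, so the caput part of the tissue label was matched by it in every library. The initial segment part was matched far less in replicate 1. There Rnase10, a gene of that segment, stood at 2.58 FPKM against 3077 and 2708 FPKM, and Adam28, another, at 0.190 FPKM against 915 and 718 FPKM. Not all genes of that list were near 0 there: Cst11 stood at 150, 7263 and 7124 FPKM, and Ros1 at 21.1, 36.6 and 34.8 FPKM. Aqp9, an apical water channel of principal cells, stood at 28.2, 47.2 and 47.1 FPKM, whereas Slc9a3, their sodium-proton exchanger, was low at 0.335, 0.375 and 0.468 FPKM. The table holds no counts, so absolute depth is unknown. The spacing of low values gave replicate 1 a depth about 1.2 times the depth of replicate 2, and about 1.4 times the depth of replicate 3. Results are given with all 3 libraries and, for some, such as the means of Dhcr7 and Vldlr, also without replicate 1.

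The members' promoters are shown first because SREBP, NF-Y and Sp1 are known to act there. A window from 250 bases before to 50 after each start site was held by RefSeq (GRCm38.p6) for 23 of the 29 genes, with no entry for Fdps, Fdft1, Sqle, Stard4, Npc1 and Scarb1. The NF-Y box CCAAT, searched on both strands, was in 14 of the 15 synthesis enzyme promoters and 6 of 8 others, against 42.6% of the 10404 genes with a window and a mean of 1 FPKM or more. Acat2, Scap and Lrp8 lacked it. Genes with several start sites were counted if any window held the letters. In 3 of the 4 promoters below, the stretch of 250 bases that ends at the base before the start site carries the box. The capitals mark the NF-Y box in either orientation (CCAAT or its reverse complement) and, in Hmgcs1, the sterol regulatory element TCACCCCAC. The examples were chosen after the levels were seen, and no link between motif and level was tested. Hmgcs1 is shown as the single member whose window matched the string searched for as that element. Idi1 and Cyp51 are shown as enzymes lowest in replicate 1, and Acat2 as the enzyme without CCAAT whose level was highest there. All are written 5′ to 3′ on the gene's own strand.
Hmgcs1, chr13:119690101-119690350, plus strand: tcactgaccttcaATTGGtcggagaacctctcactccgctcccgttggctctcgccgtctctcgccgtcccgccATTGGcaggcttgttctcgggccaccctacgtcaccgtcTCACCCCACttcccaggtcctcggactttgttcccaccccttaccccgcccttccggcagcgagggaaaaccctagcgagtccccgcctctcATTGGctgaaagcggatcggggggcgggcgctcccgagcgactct
Idi1, chr13:8885356-8885605, plus strand: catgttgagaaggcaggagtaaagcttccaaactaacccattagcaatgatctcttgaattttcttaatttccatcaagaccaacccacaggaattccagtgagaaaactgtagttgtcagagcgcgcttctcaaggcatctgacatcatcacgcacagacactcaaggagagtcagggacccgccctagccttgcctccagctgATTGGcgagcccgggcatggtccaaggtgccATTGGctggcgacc
Cyp51, chr5:4104698-4104947, minus strand: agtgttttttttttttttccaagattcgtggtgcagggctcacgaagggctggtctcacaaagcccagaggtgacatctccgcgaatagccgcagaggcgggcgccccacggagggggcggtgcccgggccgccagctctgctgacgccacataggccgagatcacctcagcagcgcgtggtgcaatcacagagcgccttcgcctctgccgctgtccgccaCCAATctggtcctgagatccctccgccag
Acat2, chr17:12960726-12960975, minus strand: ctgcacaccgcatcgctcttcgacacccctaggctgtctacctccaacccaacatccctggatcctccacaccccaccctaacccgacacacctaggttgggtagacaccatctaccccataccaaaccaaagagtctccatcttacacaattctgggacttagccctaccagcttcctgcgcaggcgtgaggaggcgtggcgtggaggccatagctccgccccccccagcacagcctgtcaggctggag

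The element searched for was TCACNCCAC on both strands. It was in 1 of 23 members, Hmgcs1, against 1.28% of the 10404 genes with a window and a mean of 1 FPKM or more. Its first base lay 137 bases before the Hmgcs1 start site, between NF-Y boxes at 176 and 45 bases before that site. The Sp1 box GGGCGG was in 21 of the 23 members and in 68.1% of the same 10404 genes. These matches describe letters in a window. Other forms of the sterol regulatory element were not searched for, so a window without this string may still hold one. Whether motif and level go together was not tested. Of the members with CCAAT, Ebp and Soat1 were highest in replicate 1 and Mvd was lowest in replicate 2. The rest of them were lowest in replicate 1. Of those without it, Scap was lowest in replicate 1, Acat2 in replicate 2 and Lrp8 in replicate 3.

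Transcripts of the synthesis pathway were abundant, and most were lowest in replicate 1. The 18 enzymes summed to 803, 1116 and 1066 FPKM in replicates 1, 2 and 3. Of these enzymes 15 were lowest in replicate 1, as were 8 of the 11 other members, together 23 of 29 or 79.3%. Among the 13073 genes whose mean was 1 FPKM or more, called expressed genes below, 41.3% were. With every library rescaled to the same FPKM sum, 14 of the 18 enzymes and 4 of the 11 others were lowest there, against 30.8% of expressed genes. In 6 members, 20.7% of the 29, replicate 1 was lower than either other library by 2-fold or more on the FPKM + 1 scale, against 4.07% of expressed genes. These were Pmvk, Idi1, Lss, Cyp51, Dhcr7 and Vldlr, of which Lss and Cyp51 fell short of 2-fold after that rescaling. No member lay 2-fold above both others in replicate 1 (1.29% of genes did). None lay 2-fold below both others in replicate 2 or 3, where 0.757% and 0.153% of genes did, or 2-fold above both others there, where 0.237% and 0.314% did. In bulk tissue, fewer cells of a type and less RNA per cell cannot be told apart.

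**Figure D1:**
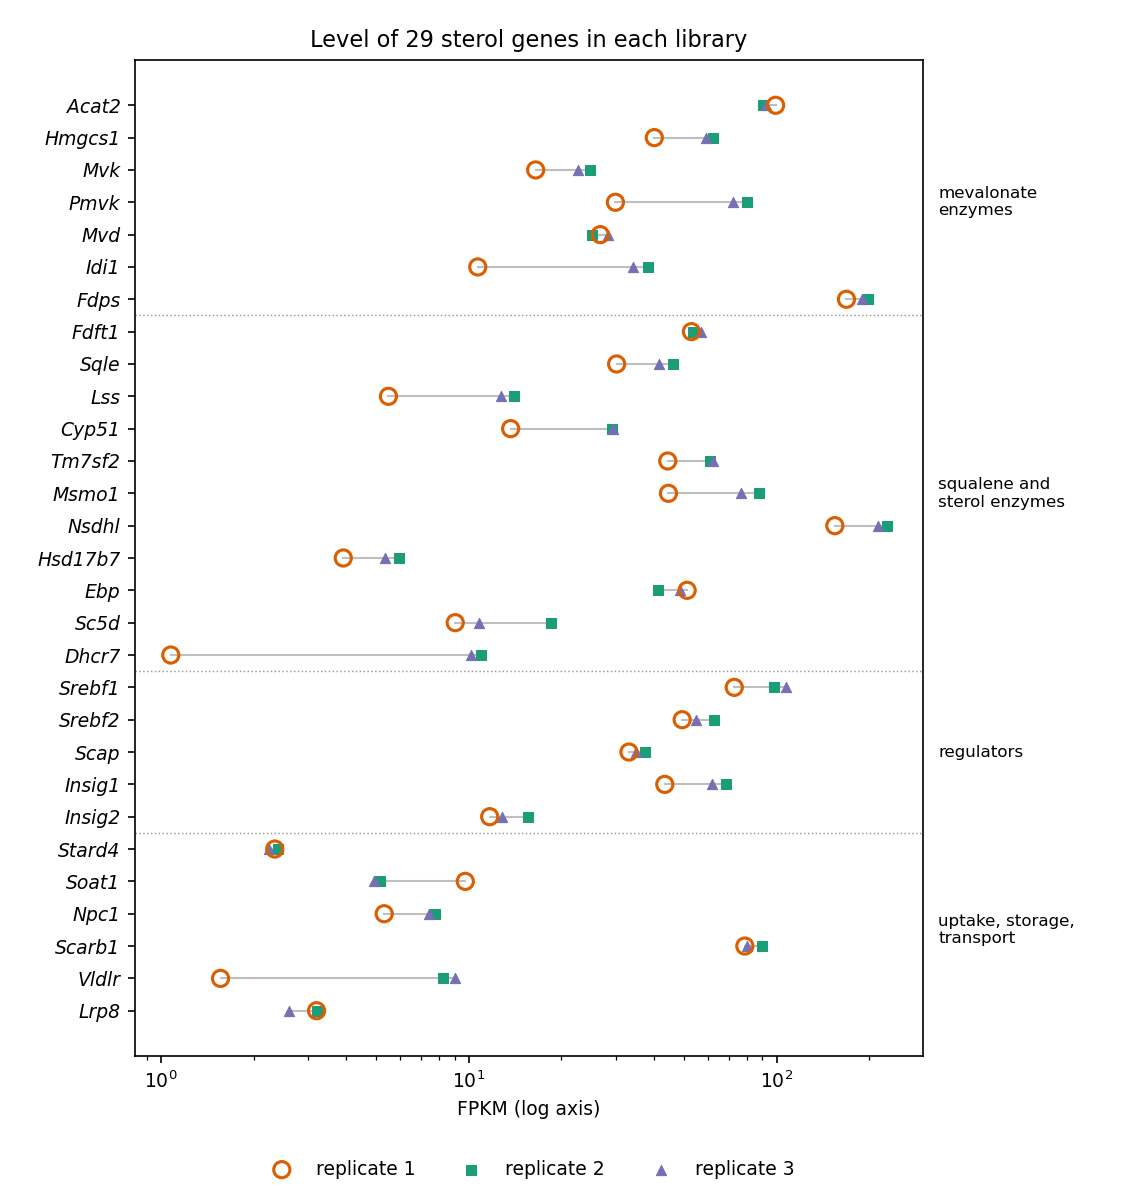
FPKM of the 29 genes in each library on a log axis, grouped by role, with a grey line from the lowest to the highest library. Open circles (replicate 1) lie left of both other symbols for 23 genes, farthest for Dhcr7 and Vldlr, while Soat1 has its circle on the right.

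The mevalonate enzymes turn acetyl-CoA into the isoprenoid building blocks. Acat2, the cytosolic thiolase that joins acetyl-CoA units, stood at 99.3, 90.2 and 92.2 FPKM in replicates 1, 2 and 3, or 93.9 ± 4.79 FPKM (SD, n = 3). Its near-identical neighbour Acat3 stood at 46.5, 22.9 and 38.5 FPKM, so the division of reads between the pair is uncertain. Hmgcs1, the HMG-CoA synthase, stood at 40.1, 62.2 and 59.2 FPKM, lowest in replicate 1 by 1.48-fold or more. Mvk, mevalonate kinase, followed the same order at 16.5, 24.9 and 22.6 FPKM.

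Pmvk (mm10 chromosome 3 from 89454541 to 89469014, plus strand), which encodes phosphomevalonate kinase, stood at 30.0, 80.2 and 72.1 FPKM. Replicate 2 was 2.68 times and replicate 3 was 2.41 times replicate 1. The next enzyme, mevalonate diphosphate decarboxylase, did not share that pattern: Mvd stood at 26.7, 25.2 and 28.3 FPKM, with a coefficient of variation (CV, the SD as a percentage of the mean) of 5.70%. Idi1, the isopentenyl diphosphate isomerase (chromosome 13 from 8885606 to 8892396, plus strand), had the widest range of the mevalonate enzymes, at 10.7, 38.2 and 34.2 FPKM. Its replicates 2 and 3 lay 3.57-fold and 3.20-fold above replicate 1. The isomerase's neighbour Idi2 was listed at 0 in replicates 1 and 2 and at 0.0876 FPKM in replicate 3. Fdps, farnesyl diphosphate synthase, was the most abundant mevalonate enzyme transcript at 169, 199 and 190 FPKM, rank 525, 436 and 505 of all genes. It varied little, with a CV of 8.27%. Of its exon bases in GENCODE 26.7% are shared with Gm43738 on the same strand, so reads of the pair may be mixed.

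The enzymes after the farnesyl branch point divided in the same way, with some steady and others far lower in replicate 1. Fdft1, squalene synthase and the first step committed to sterols, stood at 52.9, 53.4 and 56.9 FPKM, with a CV of 4.05%, among the steadiest members. Exons of the abundant cathepsin gene Ctsb on the opposite strand cover 18.3% of its exon bases, and Ctsb stood at 126, 103 and 97.7 FPKM. The strand setting of the quantification is not known, so reads of the pair may be mixed. Sqle, squalene epoxidase, stood at 30.2, 46.2 and 41.4 FPKM. Lss, the lanosterol synthase that closes the sterol rings (chromosome 10 from 76531565 to 76557139, plus strand), stood at 5.48, 14.1 and 12.7 FPKM, 2.57-fold and 2.31-fold higher in replicates 2 and 3 than in replicate 1.

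Cyp51, the lanosterol demethylase (chromosome 5 from 4080674 to 4104697, minus strand), stood at 13.7, 29.2 and 29.5 FPKM. It was the member just inside the 2-fold line, and Msmo1, the sterol methyl oxidase that acts after it, was the nearest enzyme outside with 44.5, 87.9 and 76.7 FPKM. Tm7sf2, a sterol reductase, stood at 44.3, 60.9 and 62.3 FPKM. Of its exon bases 12.1% are shared with Vps51 on the same strand, so reads of the pair may be mixed. Vps51 stood at 19.3, 14.5 and 15.8 FPKM. Nsdhl, a sterol dehydrogenase of the demethylation steps, had the highest mean of all members, 199 ± 38.7 FPKM (SD, n = 3), from 155, 228 and 213 FPKM. Its values overlapped those of Fdps, so the order of these most abundant members was not settled. Hsd17b7, the ketosteroid reductase of the same complex, was far less abundant at 3.91, 5.94 and 5.36 FPKM.

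The closing steps to cholesterol held the steepest enzyme, Dhcr7. Ebp, the sterol isomerase, stood at 51.2, 41.1 and 48.7 FPKM and was lowest in replicate 2. Sc5d, the lathosterol desaturase, stood at 9.04, 18.5 and 10.8 FPKM, so replicates 1 and 3 were both low and replicate 2 was high. It was the single member for which replicates 2 and 3 differed by more than 1.3-fold in FPKM (28 of 29 members lay within that, as did 78.1% of expressed genes). Dhcr7, the reductase that yields cholesterol from 7-dehydrocholesterol (chromosome 7 from 143823167 to 143848410, plus strand), stood at 1.08, 11.0 and 10.1 FPKM. That was the widest range of any member, 10.2-fold and 9.42-fold above replicate 1, with a mean of 7.40 ± 5.49 FPKM (SD, n = 3), and of 10.6 FPKM without replicate 1. Its position among all genes was the 48.0th percentile in replicate 1 and the 73.5th and 72.6th in replicates 2 and 3.

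**Figure D2:**
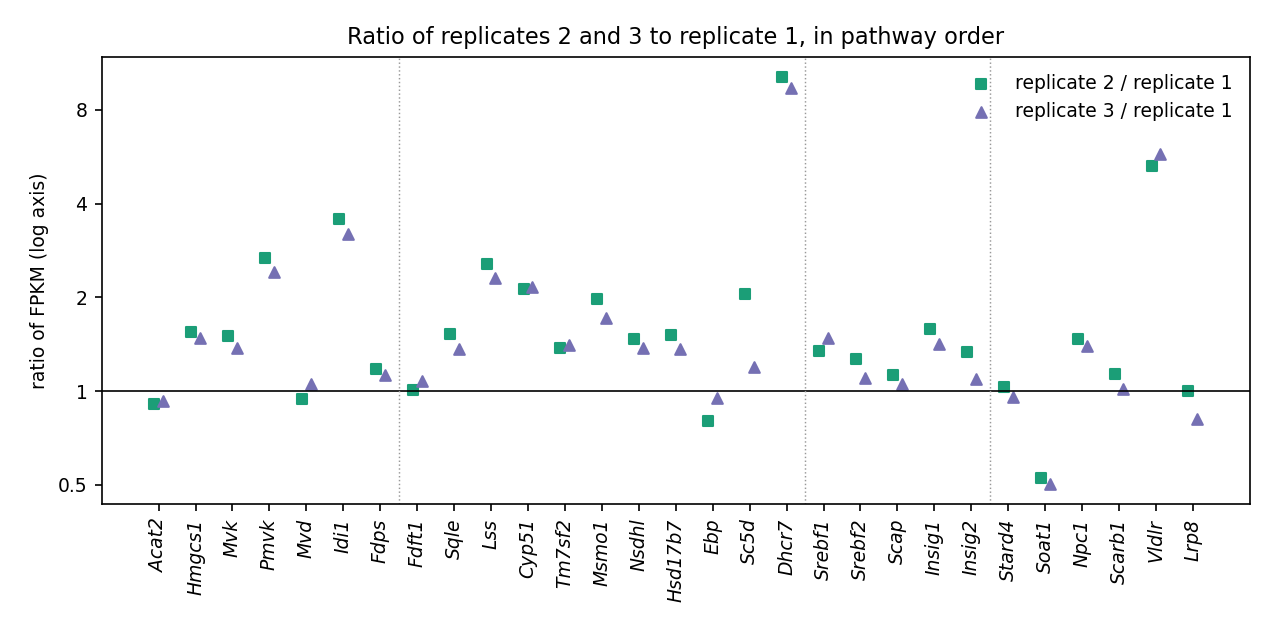
Ratio of FPKM in replicate 2 (squares) and replicate 3 (triangles) to replicate 1, on a log axis, for the members in pathway order, with dotted lines between the roles. Both series share replicate 1. The ratios reach 10.2 and 9.42 for Dhcr7 and 5.28 and 5.77 for Vldlr, lie close to 1 for Acat2, Mvd, Fdft1 and Ebp among others, and fall to 0.528 and 0.505 for Soat1.

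The regulators differed less between libraries than the steepest enzymes, but Insig1 and Srebf1 differed more than steady enzymes such as Acat2, Mvd and Fdft1. All 5 regulators were lowest in replicate 1 as deposited, against 41.3% of expressed genes. After rescaling to equal sums 2 were, Srebf1 and Insig1, against 30.8% of expressed genes. None of the regulators lay 2-fold below both other libraries in replicate 1. As 4.07% of expressed genes did, none among 5 says little about them. Srebf1, whose protein favours fatty acid genes, stood at 72.9, 98.2 and 108 FPKM. Srebf2, whose protein favours the cholesterol genes, stood at 49.4, 62.6 and 54.6 FPKM. Scap, the carrier of both, was steady at 33.2, 37.4 and 35.0 FPKM, with a CV of 6.07%. Insig1, an anchor of SCAP and itself an SREBP target gene, stood at 43.3, 68.6 and 61.6 FPKM. Its relative Insig2 stood at 11.7, 15.6 and 12.8 FPKM, where replicate 3 lay closer to replicate 1 than to replicate 2. RNA level does not show how much SREBP was cleaved, since that step acts on the protein.

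The genes of uptake, storage and transport had no shared order. Scarb1, the HDL receptor SR-BI, was by far the most abundant of them at 78.9, 89.5 and 80.1 FPKM, or 82.8 ± 5.82 FPKM (SD, n = 3). Vldlr (chromosome 19 from 27216480 to 27254231, plus strand), a receptor for lipoproteins that carry apolipoprotein E and for reelin, stood at 1.56, 8.25 and 9.01 FPKM. Replicate 1 was far below the other libraries, which lay 5.28-fold and 5.77-fold above it, and its mean was 6.27 ± 4.10 FPKM (SD, n = 3), or 8.63 FPKM without replicate 1. Lrp8, the related receptor that also binds reelin, did not share this and stood at 3.20, 3.22 and 2.61 FPKM. Npc1, which exports cholesterol from lysosomes, stood at 5.31, 7.78 and 7.42 FPKM. Stard4, a cytosolic sterol carrier, was the least abundant member and the steadiest, at 2.34, 2.41 and 2.24 FPKM with a CV of 3.54%. Soat1, which esterifies cholesterol for storage, ran the other way at 9.74, 5.14 and 4.92 FPKM, highest in replicate 1 by 1.89-fold over replicate 2 and 1.98-fold over replicate 3.

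The members were then compared on the log2(FPKM + 1) scale, each as a deviation from the mean of its 3 values. The median deviation of the 18 synthesis enzymes was -0.34, 0.23 and 0.11 in replicates 1, 2 and 3, and single enzymes ran from -1.65 to 0.13 in replicate 1. Over the 13073 expressed genes the medians were -0.01, 0.00 and 0.01. For the 11 other members the medians were -0.16, 0.11 and -0.02. After rescaling to equal sums the medians in replicate 3 were 0.02 for the enzymes and -0.11 for the others. Without replicate 2 the medians in replicate 1 were -0.22 for the enzymes and -0.06 for the others, and without replicate 1 those in replicate 2 were 0.05 for both. These deviations are from the mean of the libraries left, so their size cannot be set against those from all 3 libraries. Because the 3 deviations of any gene add up to 0, the libraries are linked in this measure. Without replicate 1, no member differed at least 2-fold between replicates 2 and 3, against 1.72% of genes. With it, 6 members differed that much between the highest and lowest library, against 10.8% of genes. At 1.5-fold 12 members did, against 27.2% of genes, and 1 member, Soat1, lay above both others in replicate 1, against 5.84%, and 1, Sc5d, in replicate 2, against 1.25%.

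**Figure D3:**
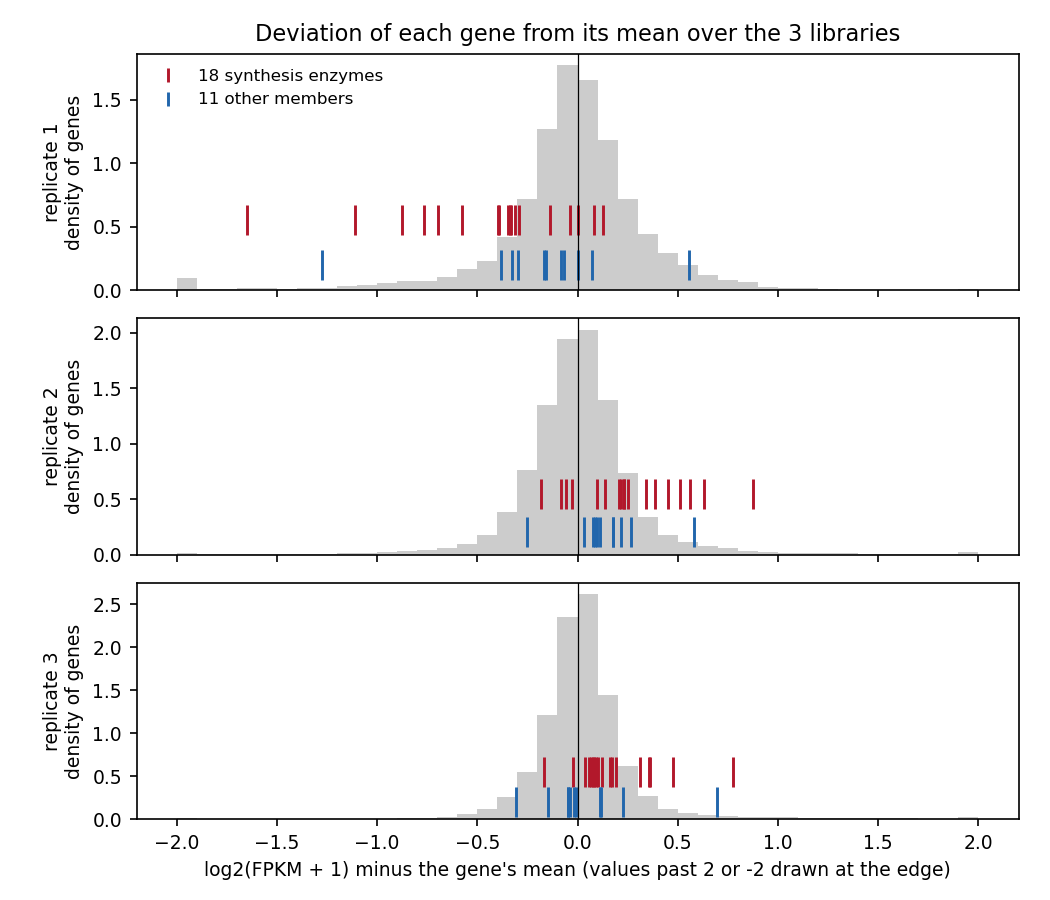
Deviation of log2(FPKM + 1) from the gene's mean over the 3 libraries, in a panel per library, for 13073 genes (grey density) and the members (red ticks, enzymes; blue ticks, other members; tick height has no meaning). In replicate 1 the enzymes run from -1.65 to 0.13 while the grey median is -0.01.

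Genes of related pathways were read from 7 lists. Of their 66 genes 65 were found by symbol (Ufd1 was not), and 2 of these, Gramd1b and Scd1, were lower in replicate 1 than in either other library by 2-fold or more, a share close to the 4.07% of expressed genes. Genes of SREBP activation and sterol sensing had a median deviation of 0.02 in replicate 1, and 3 of 9 were lowest there. Of expressed genes 41.3% were lowest there, which is the share to set beside such counts in all 7 lists. Their most abundant gene, Aup1, stood at 74.0, 74.2 and 90.7 FPKM, and their widest in range, Nsf, at 24.2, 14.1 and 15.0 FPKM. The site-1 protease gene Mbtps1, whose product makes the first cut in SREBP, stood at 62.4, 50.2 and 51.3 FPKM. The site-2 protease gene Mbtps2 ran the other way at 2.28, 3.08 and 2.83 FPKM, lowest in replicate 1.

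Sterol efflux, conversion and handling genes were on the whole not lower in replicate 1. In the LXR and efflux list the median deviation there was 0.05 and 2 of 9 genes were lowest there. Pltp, a phospholipid transfer protein gene, stood at 91.4, 83.1 and 80.8 FPKM, and Abcg1, a sterol exporter gene, at 3.43, 6.85 and 7.31 FPKM. Oxysterol and bile acid enzymes had a median of 0.22 in replicate 1, with 2 of 6 lowest there. Of these Hsd3b7 stood at 25.6, 29.7 and 31.2 FPKM, and Cyp27a1, the mitochondrial sterol hydroxylase, at 32.0, 14.9 and 18.1 FPKM.

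The list of lysosomal and intracellular handling had a median of 0.04 in replicate 1, with 4 of 10 lowest there. Npc2, a soluble sterol carrier that the epididymis also secretes in quantity, was its most abundant gene at 743, 418 and 504 FPKM, highest in replicate 1. Gramd1b, a carrier of sterol from the plasma membrane to the endoplasmic reticulum, stood at 7.81, 29.5 and 24.5 FPKM, lowest in replicate 1. In the list of lipoprotein and scavenger receptors 5 of 11 genes were lowest in replicate 1 and the median was -0.03. Sort1, a sorting receptor gene, stood at 144, 158 and 139 FPKM, and Lrp2, the megalin gene, at 2.01, 0.748 and 1.18 FPKM.

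The isoprenoid branch, which draws on the same precursors, had a median of -0.03 in replicate 1, with 4 of 8 lowest there. Fnta, a farnesyltransferase subunit gene, stood at 36.2, 40.0 and 38.1 FPKM, and Ggps1, which makes geranylgeranyl diphosphate, at 6.93, 8.74 and 5.97 FPKM. Fatty acid synthesis genes, many of them SREBP targets, came nearest to the enzymes of the members with a median of -0.20 in replicate 1, and 7 of 12 were lowest there, against 41.3% of expressed genes. Over the 11 of them with a mean of 1 FPKM or more, which leaves out Thrsp, that median was -0.08. With the same limit it was 0.08 for the LXR and efflux list, 0.34 for the oxysterol and bile acid enzymes, and turned to 0.04 for the receptors. Scd1, a stearoyl-CoA desaturase, stood at 11.0, 71.4 and 66.8 FPKM, whereas Acly, which supplies cytosolic acetyl-CoA, stood at 443, 392 and 350 FPKM and was highest in replicate 1. Differences between these lists were not tested.

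**Figure D4:**
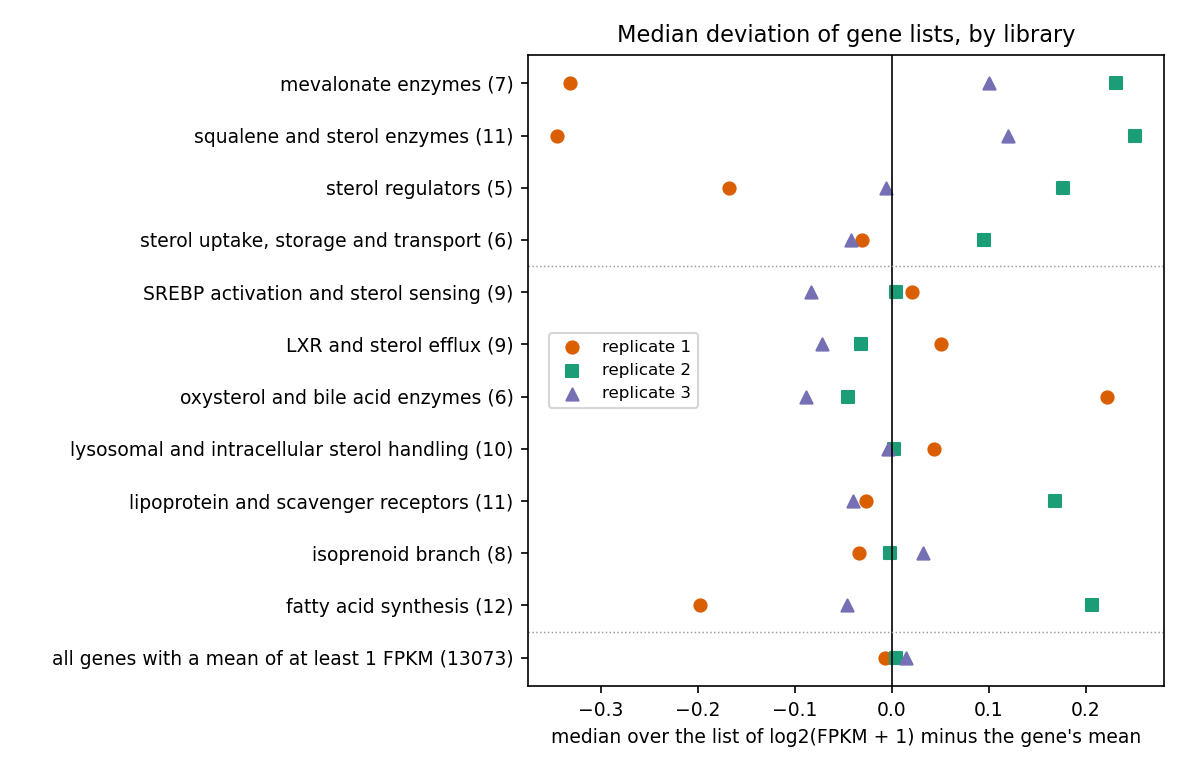
Median over each list of members or related genes of log2(FPKM + 1) minus the gene's mean over the 3 libraries, by library, with the number of genes in brackets. In replicate 1 the mevalonate enzymes (-0.33) and the squalene and sterol enzymes (-0.35) lie farthest left of the lists plotted, the fatty acid list at -0.20, and all genes at -0.01.

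Markers of other cells moved with replicate 1 as well, and their part in the members' values was not tested. Of expressed genes 41.3% were lowest and 38.2% highest in replicate 1. The 5 genes of the principal cells, the main cells of the duct lining, were all lowest there, but Lcn2 alone lay 2-fold below both other libraries. Lcn2 had the widest range of them at 2006, 7266 and 6421 FPKM. Cd52 differed less at 296, 318 and 360 FPKM, and Slc9a3 was under 1 FPKM in every library. Smooth muscle markers were highest there in 5 of 5 genes, with sums of 673, 440 and 397 FPKM, and clear and narrow cell markers in 5 of 6, with sums of 154, 76.2 and 76.8 FPKM. Germ cell markers were lowest there in 7 of 7 genes, with sums of 0.301, 178 and 249 FPKM, and 6 of them were listed at 0 in replicate 1. Macrophage markers were lowest there in 5 of 6 genes, with sums of 103, 142 and 150 FPKM. Endothelial markers summed to 11.5, 28.2 and 16.0 FPKM, with 4 of 4 lowest in replicate 1. Fibroblast markers summed to 190, 238 and 213 FPKM (2 of 5 lowest there) and basal cell markers to 178, 158 and 162 FPKM (3 of 5). Adipocyte markers, which would point to attached fat, summed to 0.323, 1.01 and 2.64 FPKM over 6 genes, and Adipoq was listed at 0 in replicate 1. Leydig cell markers summed to 6.73, 6.38 and 6.78 FPKM, with Insl3 listed at 0 in replicates 1 and 3. Of 10 ubiquitous genes 7 were also lowest in replicate 1, against 41.3% of expressed genes, with a median deviation of -0.12, and none lay 2-fold below both others there.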

How the data were processed

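The authors deposited 1 table of normalized FPKM values per gene and library, per the file headers. RNA was isolated with TRIzol and read from stranded TruSeq mRNA libraries, per the labels' protocols. The submitters' processing notes name TopHat2 2.1.1, Cufflinks 2.2.1 and mm10. The annotation, strand setting, filters and what the word normalized adds are not stated in the sources used here. FPKM cannot be turned back into counts, and a low value carries more counting error.

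Libraries were matched to columns by name, and 24260 of 24346 gene IDs to RefSeq of GRCm38.p6 (mm10 coordinates, 1-based). Strands and exon overlaps came from GENCODE M21. Further members overlap other genes, among them Scap (13.2% of exon bases) and Hmgcs1 (12.1%), in both with a gene on the opposite strand. Values were taken as log2(FPKM + 1). With 1 group no test was made. Relative depth is the shift that puts the largest share of ratios of values under 0.5 FPKM at small whole-number ratios. That share was 47.8% for replicates 1 and 2, with a tolerance of 0.02 on the log2 scale, so the depths are approximate. The counting functions were tested on simulated data. Python 3.11.15, numpy 2.4.6, pandas 2.3.3 and matplotlib 3.10.9 were used.

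All members are named, and in each related list the gene of highest mean and that of widest range. Mbtps1, Mbtps2 and single markers were chosen after their values were seen. Members, lists and motifs were chosen with earlier results of these data known. Some enzymes and receptors of the pathway are not described here.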

Additional observations from a re-analysis of the deposited data

How the results depend on the processing

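No paired analysis was possible because the labels give 1 group. With each library left out in turn, the enzymes' median deviation ran from -0.2899 to -0.2246 in replicate 1 (-0.3419 with all), from 0.0507 to 0.2899 in replicate 2, and from -0.0507 to 0.2246 in replicate 3. That of the other members ran from -0.1678 to -0.0589, from 0.0469 to 0.1678 and from -0.0469 to 0.0589. The values nearest 0 in replicate 1 came without replicate 2, and those in replicate 2 without replicate 1. In replicate 3 the enzymes' median turned without replicate 1 and the others' without replicate 2. With 2 libraries left, a deviation in one mirrors that in the other, so such a sign change says nothing of stability. The deviation is then from the mean of those 2, so its size is not comparable with that from all libraries. Members 2-fold above the others in replicate 2 or 3 then numbered 0 to 6, and members whose libraries differed 2-fold 0 (without replicate 1) to 6. The 6 are by construction those low in replicate 1. At 1.5-fold, 12 members differed between libraries (27.2% of genes did), and 1 member each, Soat1 and Sc5d, lay above both others in replicates 1 and 2 (5.84% and 1.25% of genes). On the gene strand alone 10 members held the NF-Y box, by construction fewer than on both. Rescaling to equal sums cut the members 2-fold below both others in replicate 1 from 6 to 4 and, in an alternative chosen after seeing the data, those lowest there from 23 to 18 (22 with median-of-ratios scaling). It moved the enzymes' replicate 3 median from 0.1103 to 0.0179 and the others' from -0.0166 to -0.1103, while the median of all genes there moved to -0.07. The medians kept their sign under both scalings, a pseudocount of 0.1 and the 1 FPKM filter, which removed no member. Absolute depth is unknown, so values near 1 FPKM, such as Dhcr7 and Vldlr in replicate 1, have an unknown counting error.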
